A study of Mus musculus with 8 samples.

Results

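The GFP-negative cells were 4 of the 8 libraries of the series, 1 from each of the mouse alveolar organoid lines SN2285, SN2286, SN2293 and SN2294. They were chosen by the sort recorded in the labels and by no measured value, and the other 4 libraries held the GFP-positive cells of the same lines. All lines came from lungs of Sftpc-eGFP transgenic mice, which carry an enhanced green fluorescent protein named for the surfactant protein C gene. Both sorts therefore share the transgene, FNHCAS medium, drops of matrigel and ambient oxygen, and differ by fluorescence-activated cell sorting alone. The labels name the sort as the only treatment and give no age and no fluorescence threshold, and they leave the number of animals behind the 4 lines unrecorded. P-values for a difference between the sorts are therefore set against the spread between lines, not between animals. Those for a difference among lines, or between sorts with line as a block, are set against the variation left after sort and line. A GFP-negative gate holds any cell below the fluorescence threshold, whatever its type. Polyadenylated RNA was sequenced, and levels are given as counts per 1000000 (CPM), scaled to the library total and a composition factor, with the SD over 4 lines (n = 4). Single values follow the order SN2285, SN2286, SN2293, SN2294, and levels of different genes are compared only as transcripts per 1000000 (TPM), which also divide by exon length.

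Alveolar type 2 (AT2) cells make and secrete surfactant and give rise to the flat alveolar type 1 (AT1) cells. The airways are lined instead by basal cells, the p63-positive stem cells that rest on the basement membrane, by secretory club and goblet cells, by ciliated cells and by rare neuroendocrine and tuft cells. Lung fibroblasts carry receptors for platelet-derived growth factor, lay down collagen and supply growth factors to the epithelium.

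The GFP-negative libraries of SN2285, SN2286 and SN2293 held 14408203, 14567266 and 15583384 counts and that of SN2294 held 5910344, against 11202576 to 16032633 in the GFP-positive libraries. A floor of 3 counts corresponds to 0.193 to 0.208 CPM in the first 3 and to 0.508 CPM in SN2294. These floors are scaled by library total alone, without the composition factor described above, and cover counting error only. Of 23284 genes, 14138 were counted in all 4 GFP-negative libraries, 6117 in none of them, and 9708 averaged at least 10 CPM. Xist, the RNA that coats the inactive X chromosome, stood at 788, 960, 2.68 and 17 CPM in the GFP-negative and at 1103, 1385, 2.09 and 1.88 CPM in the GFP-positive libraries. The Y-linked helicase gene Ddx3y stood at 0.802, 0.46, 84.7 and 74.9 CPM in the GFP-negative libraries, so that the same 2 lines were Xist-high in both sorts and the other 2 were high in Ddx3y. The SN2294 library also carried leukocyte transcripts that were at or near 0 in the other 3 GFP-negative libraries. Ptprc, the pan-leukocyte surface phosphatase CD45, had no count in 3 libraries and 4.09 CPM in SN2294, and Csf1r, the receptor that sustains macrophages, stood at 0, 0, 0.0608 and 10.9 CPM. Counts that rest on SN2294 are therefore given with and without it.

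By read count, the GFP-negative mixture was led by Clu, which encodes the secreted chaperone clusterin, followed by the translation elongation factor gene Eef1a1. Clu reached 13873, 8487, 11133 and 10237 CPM, a mean of 10933 ± 2247 CPM. It was the most abundant gene in each of the 4 libraries, at 1.441%, 0.8876%, 1.175% and 1.101% of all counts, and the 95% binomial intervals (Clopper-Pearson, counting error only) of this and the larger shares below are within 0.04 percentage points. The 100 most abundant genes of each library took 16.79%, 16.73%, 16.16% and 15.83% of its counts, and 77 genes were among the top 100 of all 4 libraries. Ranked by mean, 75 of the 100 leading genes were also among the leading 100 of the GFP-positive libraries. At rank 5 by CPM stood Rn45s, the ribosomal RNA precursor, with 1566, 2665, 3317 and 5287 CPM. It was highest in SN2294, and no exon length was found for it, so that it has no TPM. Whether ribosomal RNA carry-over differed between the libraries was not tested.

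Of the 30 leading genes by CPM, 14 were also among the leading 30 by TPM. Clu remained first at 16396 TPM, and it was followed by Wfdc2, a secreted antiprotease of airway epithelium, at 10891 TPM, Eef1a1 at 9799 TPM and the siderophore-binding antibacterial protein gene Lcn2 at 5978 TPM. Ribosomal protein genes made up 14 of the leading 100 by CPM and 11 of the leading 30 by TPM. Sftpc was at rank 22 by TPM, at 2978 TPM, in cells sorted for the absence of its reporter.

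Secreted host-defence and iron-handling proteins stood among the 30 leading genes by CPM, and some of them moved more between lines than the housekeeping genes. Wfdc2 stood at 3014, 4310, 2974 and 3344 CPM, and Cp, the ferroxidase ceruloplasmin, at 2209, 3364, 2289 and 2241 CPM. Trf, which encodes the iron carrier transferrin, stood at 1842, 4108, 2407 and 1174 CPM and Lcn2 at 1447, 3235, 1559 and 1840 CPM. All 4 genes were highest in SN2286, and Trf was 3.50-fold higher there than in SN2294. Pigr, the receptor that carries immunoglobulin A across the epithelium, had the same highest and lowest lines as Trf, with 1497, 2855, 1571 and 1068 CPM. Hsp90ab1, the cytosolic chaperone HSP90-beta, spanned 2919 to 3140 CPM in the same libraries.

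**Figure D1:**
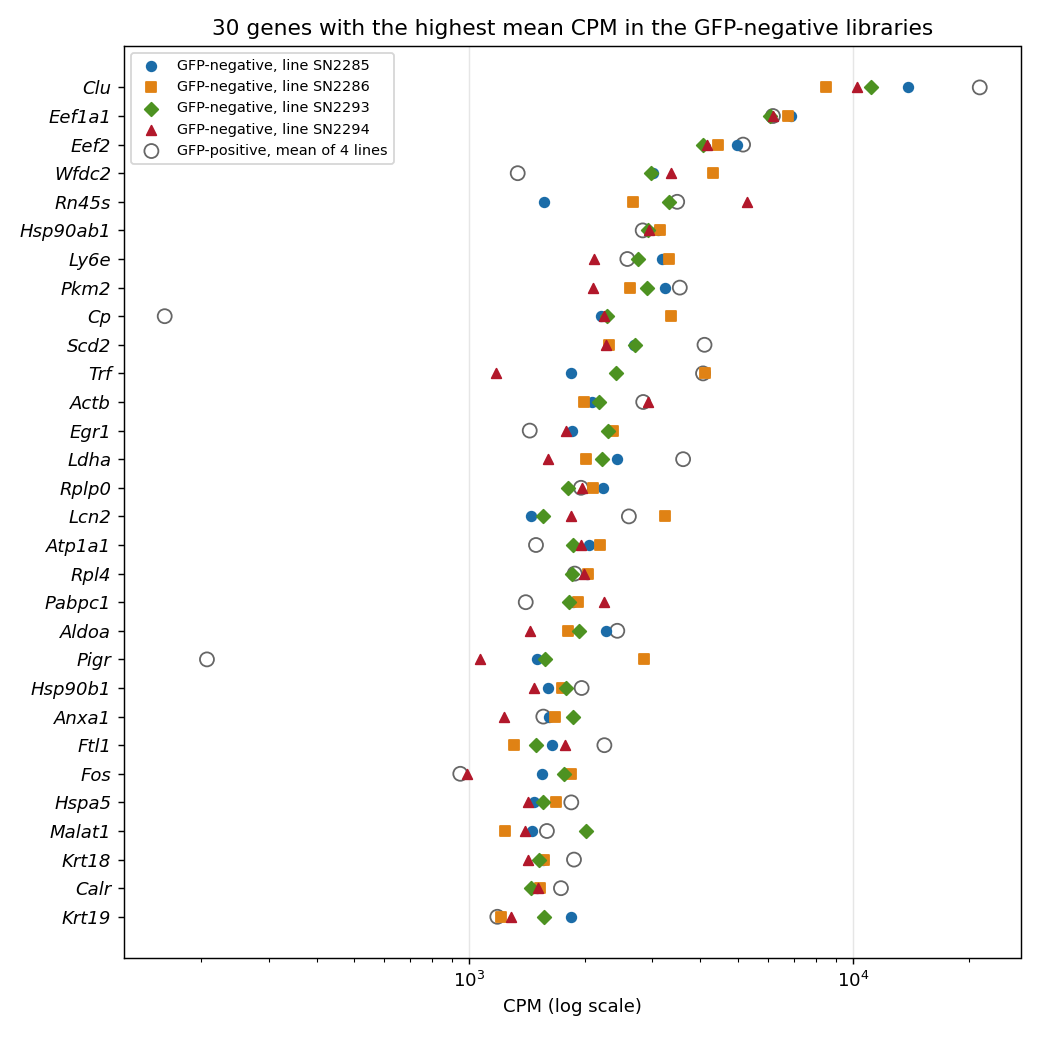
Mean-ranked list of the 30 leading genes of the GFP-negative libraries, with CPM on a log axis, 1 filled symbol per line and an open circle for the mean of the 4 GFP-positive libraries. Clu leads at 8487 to 13873 CPM, and Trf (1174 to 4108 CPM) spreads more between lines than Eef1a1 (6079 to 6909 CPM).

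The basal program was present in every GFP-negative library and its master regulator hardly varied. Trp63, which encodes the transcription factor p63, stood at 189, 203, 180 and 186 CPM (189 ± 9.79 CPM), and the 4 lines overlapped closely. Ngfr, the nerve growth factor receptor used to sort airway basal cells, stood at 235, 244, 207 and 194 CPM. Krt15, a keratin of basal layers, reached 945, 653, 910 and 1033 CPM, and Krt5, the classical basal keratin, reached 588, 369, 361 and 253 CPM. Krt5 was thus 2.33-fold higher in SN2285 than in SN2294, while Krt15 was highest in SN2294. Per length, Krt15 was the more abundant keratin at 1415 TPM, against 484 TPM for Krt5, 173 TPM for Ngfr and 61.2 TPM for Trp63.

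Not every basal gene was abundant. Krt14, the partner keratin of Krt5 in many squamous epithelia and named after its values were seen, stood at 12.5, 6.76, 8.64 and 7.55 CPM, or 14.2 TPM. Aqp3, the basal water and glycerol channel, stood at 603, 550, 505 and 759 CPM. Of the 20 basal genes listed, 18 averaged at least 10 CPM, and the list summed to 5114, 4360, 4500 and 4640 CPM, with little difference between lines. In the GFP-positive libraries the same genes summed to 1763 CPM on average, and 18 of the 20 passed as higher and 1 as lower in GFP-negative cells (edgeR's quasi-likelihood test, Benjamini-Hochberg adjusted over 12848 genes, threshold 0.05), where 21.8% of all genes tested passed as higher and 18.9% as lower. The exception was Bcam, a laminin receptor, at 523, 366, 430 and 410 CPM in GFP-negative cells against a mean of 1086 CPM in GFP-positive cells. Of the 20 genes, 9 averaged at least 10 CPM in both sorts, so some could pass the filter on low counts through GFP-negative cells alone. The count of genes that passed thus describes the list and is not support for it, and the same holds for the lists below. In these bulk samples, fewer cells of a type and less RNA per cell cannot be told apart.

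Suprabasal and squamous genes were present at lower and more uneven levels. Sfn, the stratifin that restrains proliferation of keratinocytes, stood at 319, 297, 298 and 346 CPM, and Dsp, the desmosomal plaque protein, at 539, 412, 476 and 449 CPM. Upk1b, a tetraspanin of urothelial plaques, stood at 213, 109, 186 and 179 CPM. Krt6a, a keratin of injured and squamous epithelium, stood at 27.4, 12.8, 39.7 and 38.4 CPM, and Krt13, a suprabasal keratin, at 10.6, 3.55, 7.42 and 8.03 CPM. Upk1b, Krt6a and Krt13 were lowest in SN2286, where Krt6a was 3.07-fold below its highest library. Of the 25 such genes in the table, 11 averaged at least 10 CPM and 6 averaged under 1 CPM.

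The club program was split. Cyp2f2, the cytochrome P450 that marks club cells, stood at 645, 837, 588 and 507 CPM (935 TPM), whereas Scgb1a1, the main secretoglobin of mature club cells, stood at 5.55, 8.27, 4.26 and 2.83 CPM (29.7 TPM). Scgb3a2, a secretoglobin of the distal airway, stood at 0.267, 0.394, 0.122 and 0 CPM, near the floor in each library. Scgb1a1 was thus low but above the floor of 3 counts in each library. Scgb1a1 averaged 19.4 CPM in GFP-positive cells, and the 2 sorts overlapped for it. The log2 difference (GFP-negative minus GFP-positive) was -1.83 with a standard error of 0.97. The edgeR adjusted p was 0.187, and 0.0567 with line as a block.

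Other secretory genes accompanied Cyp2f2. Gabrp, a subunit of the epithelial GABA receptor, stood at 695, 679, 675 and 478 CPM and was lowest in SN2294. Hp, which encodes the haemoglobin scavenger haptoglobin, stood at 571, 805, 564 and 857 CPM. Reg3g, an antibacterial lectin, stood at 466, 1053, 483 and 293 CPM, 3.60-fold higher in SN2286 than in SN2294, and was the most abundant of these per length at 2011 TPM. The 22 club genes summed to 4288, 5354, 4093 and 3555 CPM, with SN2286 highest and SN2294 lowest. Of the 18 that could be tested, 13 passed as higher in GFP-negative cells (21.8% of all genes). With line as a block, 12 passed as higher and 1 as lower, a fit in which 25.2% of all genes passed as higher and 22.8% as lower.

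**Figure D2:**
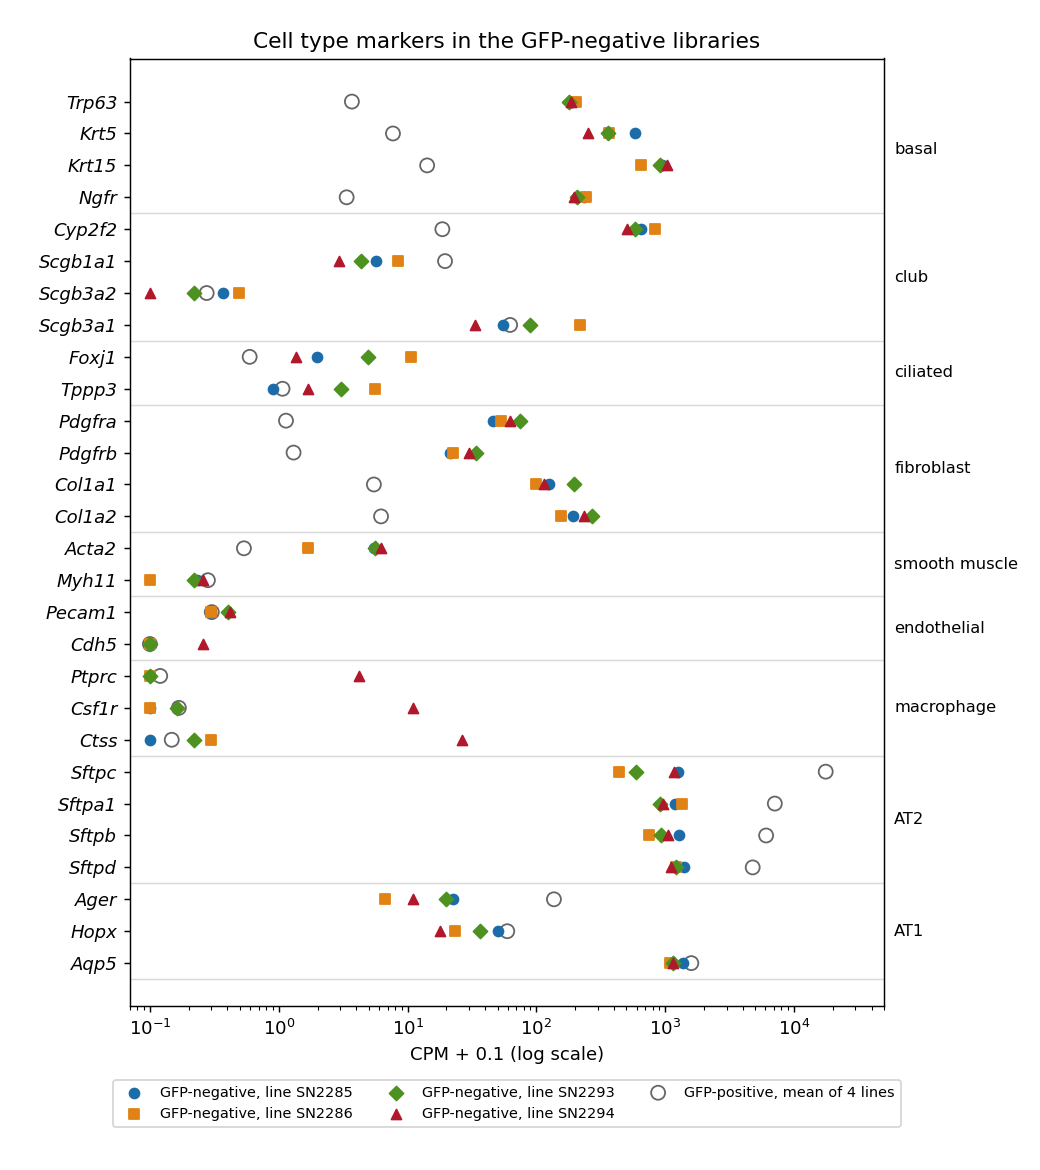
Markers of the cell types that the gate could hold, with CPM + 0.1 on a log axis, 1 filled symbol per GFP-negative line and an open circle for the mean of the 4 GFP-positive libraries. Trp63 (180.0 to 203 CPM) and Pdgfra (46.1 to 74.8 CPM) are present in all 4 lines, Pecam1 averages 0.254 CPM, and Ptprc, Csf1r and Ctss stand apart in SN2294.

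Goblet and mucous genes were the most uneven of the epithelial lists. Bpifa1, an airway surfactant and host-defence protein, stood at 70.6, 367, 108 and 7.87 CPM, a 45.8-fold range, and Bpifb1, of the same family, at 29.0, 106, 36.3 and 7.71 CPM. Muc5b, the gel-forming mucin of submucosal glands and club cells, stood at 4.08, 47.6, 13 and 1.26 CPM. Scgb3a1, a secretoglobin of mucous cells that was listed with the club genes, stood at 55.4, 217, 88.5 and 33.1 CPM. All 4 genes were highest in SN2286 and lowest in SN2294. In GFP-positive cells SN2286 was again highest and SN2294 lowest for all 4, with Bpifa1 at 121, 731, 174 and 0.26 CPM. The genes were chosen with earlier results of these data known, so this order describes them and is not support. Ltf and Gp2, goblet genes named after their values were seen, also had a 4-fold range but were highest in SN2285. They stood there at 149 and 21.8 CPM in GFP-negative cells, and were lowest in SN2294.

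Across the goblet list, 9 of 18 genes averaged at least 10 CPM in GFP-negative cells. Of these 9, 8 were lowest in SN2294 (33.0% of all genes at that level), 6 were highest in SN2286 (24.1% of all genes) and 6 had a range of 4-fold or more, a range that 0.649% of all genes at that level reached. Among all genes 63 reached it, and without the SN2294 library 10 of all genes and 2 of the 9 did. The median range of the list then fell from 2.18 to 1.04 on the log2 scale, and that of all genes from 0.30 to 0.20. Muc4, a membrane mucin, stood at 323, 594, 282 and 135 CPM and passed the test of a line term that both sorts share (edgeR quasi-likelihood F test, adjusted p = 1.20e-04). For Bpifa1 that test gave an edgeR adjusted p of 0.149, and for Muc5b 0.0639. The edgeR adjusted p for Bpifa1 was 6.93e-16 without line SN2294 but 0.26 to 0.343 without any other line, and for Muc5b it was 1.86e-05 without SN2285, 0.0012 without SN2293, 0.264 without SN2286 and 0.302 without SN2294. Muc5ac, the gel-forming mucin of goblet cells, was under 1 CPM in each library, and so was Spdef, the goblet-cell transcription factor.

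Ciliated, neuroendocrine and tuft markers were low. Foxj1, the master regulator of motile cilia, stood at 1.87, 10.6, 4.87 and 1.26 CPM and was highest in SN2286. Of 16 ciliated genes, 1 averaged at least 10 CPM, the widely expressed tubulin gene Tubb4b, and 9 averaged under 1 CPM. Chga, a granule protein of neuroendocrine cells, averaged 0.325 CPM, and the 10 neuroendocrine genes together summed to 15 ± 1.6 CPM. Pou2f3 and Trpm5, the regulator and the taste channel of tuft cells, averaged 0.0468 and 0.0164 CPM.

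Fibroblast transcripts were present in all 4 lines at moderate levels. Pdgfra, the platelet-derived growth factor receptor of alveolar fibroblasts, stood at 46.1, 52.7, 74.8 and 62.6 CPM, and Pdgfrb, the receptor of pericytes and adventitial cells, at 21.4, 22.4, 34.0 and 29.9 CPM. Col1a1 and Col1a2, the 2 chains of type I collagen, stood at 125, 100, 195 and 114 CPM and at 191, 155, 269 and 234 CPM. All 4 genes were highest in SN2293. Per length, Col1a2 reached 108 TPM, Col1a1 61.4 TPM and Pdgfra 18.4 TPM, against 1415 TPM for Krt15.

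The fibroblast list summed to 2487, 1768, 2760 and 2420 CPM and was lowest in SN2286, as the basal list was, and 11 of its 14 genes with at least 10 CPM were lowest there, against 21.3% of all genes at that level. The largest contribution came from Fn1, the fibronectin gene that epithelial cells also use, at 1624, 1047, 1434 and 1192 CPM. Sparc, a collagen-binding matrix protein, stood at 113, 83.0, 168 and 141 CPM. The line term passed for 4 of the 26 genes listed (5.32% of all genes tested passed), for 13 without line SN2294 and for 1 without SN2286. Among all genes 943 passed without SN2294 and 535 without SN2286, against 683 with every line. Between the sorts, 20 of the 26 passed as higher in GFP-negative cells (21.8% of all genes), and the other 6 were too low to test. A gene that is high in one sort alone can pass the filter on low counts through that sort, so this count describes the list and is not support for it.

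Smooth muscle, mesothelial and vascular markers were low or unspecific. Acta2, the smooth muscle actin, stood at 5.35, 1.58, 5.53 and 6.14 CPM, and Myh11, the smooth muscle myosin, averaged 0.103 CPM. Msln, a surface protein of mesothelium that some lung epithelial cells also carry, stood at 573, 345, 609 and 401 CPM, while Wt1 and Lrrn4, which mark mesothelium, averaged 0.308 and 0.0486 CPM. Of the endothelial genes, Pecam1 averaged 0.254 CPM and Cdh5, the endothelial cadherin, was counted only in SN2294, at 0.157 CPM. The 16 lymphoid and granulocyte genes averaged under 1 CPM each, and 9 of them had no count.

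Macrophage genes separated 1 library from the rest. Without Lyz2 and Cd14, which epithelial cells also express, the 22 other genes listed summed to 39.4, 29.9, 36.7 and 195 CPM in the GFP-negative and to 27.3, 31.7, 28.3 and 15.4 CPM in the GFP-positive libraries. Emr1, which encodes the macrophage antigen F4/80, stood at 0, 0.263, 0.243 and 8.66 CPM, and the cathepsin gene Ctss, named after its values were seen, at 0, 0.197, 0.122 and 26.6 CPM. Both were close to 0 outside SN2294. Lyz2, a lysozyme of macrophages and AT2 cells that can share reads with its closely similar neighbour Lyz1, was alike in the 4 lines, at 366, 446, 446 and 366 CPM.

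Surfactant transcripts were retained in the GFP-negative cells at different shares of their GFP-positive level. Sftpc stood at 1267, 438, 593 and 1181 CPM, or 6.59%, 2.54%, 3.07% and 7.98% of the GFP-positive library of the same line, a difference that the sort itself selects. Sftpa1, a collectin of surfactant, stood at 1190, 1361, 917 and 966 CPM, Sftpb, which spreads the surfactant film, at 1272, 753, 931 and 1048 CPM, and Sftpd, the other collectin, at 1406, 1203, 1211 and 1113 CPM. The order of lines differed between them: Sftpa1 was highest in SN2286, the line with the lowest Sftpc. The mean share was 5.05 ± 2.65% for Sftpc, 15.5 ± 1.78% for Sftpa1, 16.4 ± 2.93% for Sftpb and 25.8 ± 1.67% for Sftpd.

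Of the 35 AT2 genes tested, 31 passed as lower and 3 as higher in GFP-negative cells, where 18.9% and 21.8% of all genes tested did. The 3 higher ones were Lyz2, the alarmin gene Il33 and the lipid transporter gene Mfsd2a, the last pair named after their values were seen. The residual share was examined for the 24 AT2 genes that passed as lower in GFP-negative cells and averaged at least 100 CPM in GFP-positive cells, a choice that uses both sorts and makes every share low by construction. Within a line the shares were wide, from 5.59% to 61.1% in SN2285, from 2.54% to 74.0% in SN2286, from 1.47% to 58.8% in SN2293 and from 4.93% to 79.3% in SN2294, with medians of 21.2%, 17.2%, 17.7% and 20.5%. Lowest was Cd177, a surface glycoprotein better known from neutrophils, at 3.84 ± 1.97%. Near the middle stood Lpcat1, which makes the main surfactant phospholipid, at 16.3 ± 0.918%. Nkx2-1, the transcription factor of the lung epithelium, kept 41.9 ± 3.66%, Acly, which supplies acetyl-CoA for lipid synthesis, 58.8 ± 1.61%, and Etv5, a target of fibroblast growth factor signalling in AT2 cells, 66.5 ± 12.1%. Cd177, Lpcat1, Acly and Etv5 were named after their values were seen.

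**Figure D3:**
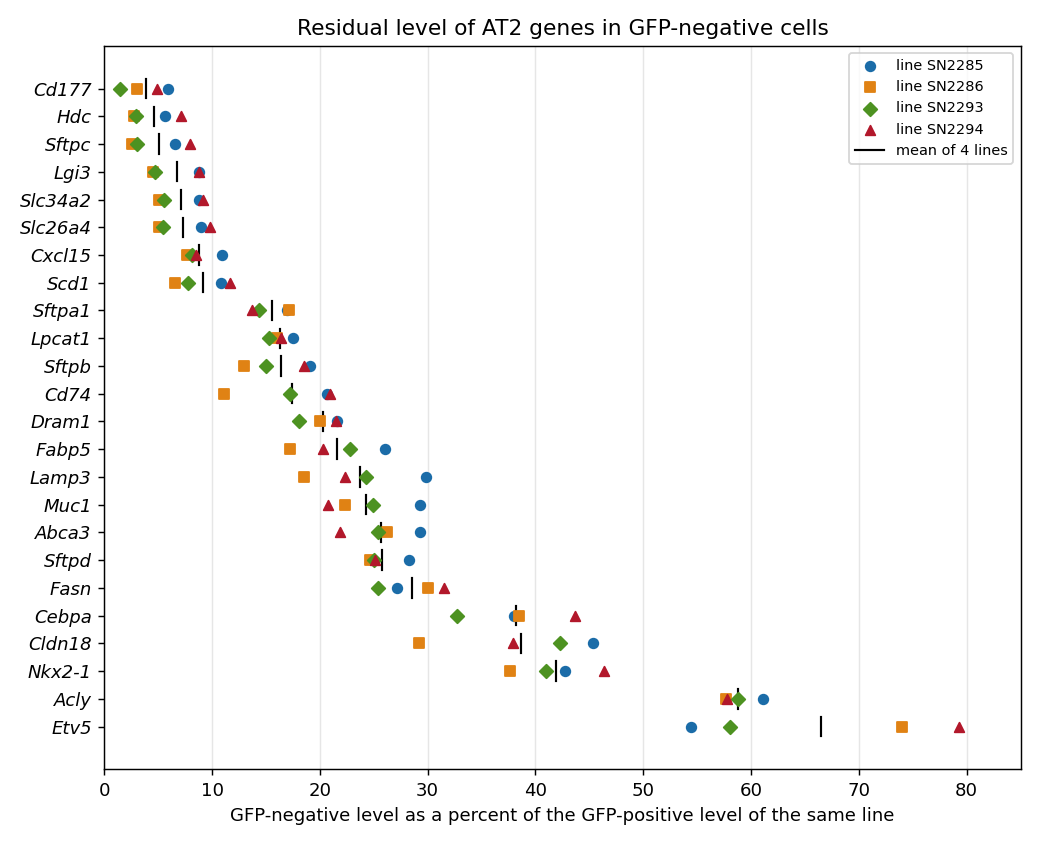
Level of 24 AT2 genes in GFP-negative cells as a percent of the GFP-positive level of the same line, 1 symbol per line, with a bar at the mean of the 4 lines. Sftpc lies at 2.54% to 7.98% and Etv5 at 54.4% to 79.3%, and the lines SN2286 and SN2293 lie below the other 2 lines for Sftpc.

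AT1 markers were uneven. Ager, the receptor used as a marker of AT1 cells, stood at 22.4, 6.56, 19.95 and 11 CPM and Hopx, an AT1 homeodomain protein, at 50.4, 23.4, 36.6 and 17.8 CPM. Both were lower in SN2286 and SN2294 than in the other 2 lines. Aqp5, a water channel shared with secretory cells, stood at 1377, 1083, 1151 and 1157 CPM, and Pdpn, a mucin-type glycoprotein of AT1 and basal cells, at 169, 198, 177 and 272 CPM. The line term passed for 9 of the 21 AT1 genes tested, against 5.32% of all genes, and the other 4 listed were too low to test. Between the sorts, 15 of the 21 passed as lower (18.9% of all genes) and 1, Pdpn, as higher (21.8%) in GFP-negative cells, and 16 and 2 with line as a block (22.8% and 25.2% of all genes).

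Keratins of simple and transitional epithelium were abundant in every GFP-negative library. Krt18 stood at 1554, 1570, 1521 and 1425 CPM, its partner Krt8 at 908, 806, 892 and 782 CPM, and Krt19 at 1837, 1212, 1570 and 1283 CPM. Krt18 and Krt8 varied little, and Krt19 was 1.52-fold higher in SN2285 than in SN2286. Per length they stood at 2866, 1174 and 2542 TPM, above both basal keratins except for Krt15, which at 1415 TPM exceeded Krt8. Of 23 transitional genes, 7 passed as higher and 9 as lower in GFP-negative cells, against 21.8% and 18.9% of all genes. With line as a block, 10 and 10 passed, against 25.2% and 22.8% of all genes.

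Among transcription factors of endoderm and airway identity, Foxa1 stood at 242, 298, 245 and 243 CPM and its relative Foxa2 at 32.5, 20.8, 22.6 and 25.5 CPM. Nkx2-1 stood at 124, 90.5, 119 and 109 CPM and Hes1, a repressor induced by Notch signalling, at 233, 307, 221 and 294 CPM. Foxa1 and Hes1 were higher, and Foxa2 and Nkx2-1 lower, in GFP-negative than in GFP-positive cells, with no overlap of the 4 libraries of each sort. The log2 differences (GFP-negative minus GFP-positive) were 1.64 ± 0.09 and 1.61 ± 0.12 for Foxa1 and Hes1 and -1.95 ± 0.14 and -1.25 ± 0.11 for Foxa2 and Nkx2-1 (± standard error), with edgeR adjusted p of 8.12e-08, 8.12e-07, 9.18e-07 and 3.72e-06. Of the 67 factors listed, 41 averaged at least 10 CPM in GFP-negative cells, and their median range over the lines was 0.42 on the log2 scale, against 0.30 for all genes at that level.

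Ehf and Elf3, which are ETS-family factors of secretory and other barrier epithelia, stood at 395, 436, 446 and 322 CPM and at 267, 324, 281 and 195 CPM. Both were lowest in SN2294 in both sorts, and both passed the line term (edgeR adjusted p = 0.044 for Ehf and 0.00481 for Elf3). Neither Ehf nor Elf3 passed without line SN2294 (edgeR adjusted p = 0.258 and 0.0764), nor did Ehf without SN2286 (edgeR adjusted p = 0.128) or with scaling by library totals alone (edgeR adjusted p = 0.0562).

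Among growth signals, the interleukin-6 family cytokine gene Lif stood at 235, 368, 424 and 246 CPM, and the epidermal growth factor receptor ligand gene Hbegf at 290.3, 342, 415 and 267 CPM. Both were higher in SN2286 and SN2293 than in the other lines. Fgf7, a growth factor that fibroblasts make for the epithelium, stood at 2.87, 1.77, 3.35 and 3.94 CPM, and Fgf9 averaged 0.122 CPM. The line term passed for Lif (edgeR adjusted p = 0.0056) and not for Hbegf (edgeR adjusted p = 0.0663, and 0.0139 without line SN2294).

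Basement membrane genes were split between epithelial and mesenchymal chains. Lama5, the laminin chain of lung epithelium, stood at 963, 797, 986 and 771 CPM (210 TPM). Lama2 and Lama4, chains of muscle and vascular basement membranes, stood at 15.6, 15.4, 22.5 and 22.2 CPM (5.26 TPM) and at 27.7, 32.4, 49.1 and 35.4 CPM (16.3 TPM). Lama5 overlapped between the sorts, with a mean of 879 CPM in GFP-negative and 914 CPM in GFP-positive cells, whereas Lama4 averaged 36.2 CPM against 0.708 CPM.

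Proliferation genes were expressed in every GFP-negative library and were the steadiest of the lists with over 20 genes at 10 CPM. Mki67, the Ki-67 proliferation antigen, stood at 556, 636, 611 and 540.3 CPM, and Top2a, the topoisomerase of dividing cells, at 413, 534, 495 and 463 CPM. All 25 cell cycle genes averaged at least 10 CPM, and their median range was 0.32 on the log2 scale. Ccnd2, a D-type cyclin, stood at 782, 710.0, 843 and 850.2 CPM in GFP-negative cells against a mean of 297 CPM in GFP-positive cells, without overlap (log2 difference 1.42 ± 0.08, edgeR adjusted p = 7.66e-08). It was the only one of the 25 that passed as higher (21.8% of all genes), and 15 passed as lower (18.9% of all genes). With line as a block, 19 passed as lower (22.8% of all genes).

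The lines differed little for most genes within the sort. Among the 9708 genes with at least 10 CPM, the median ratio of the highest to the lowest GFP-negative library was 1.23, its 95th percentile was 1.86, and 369 genes reached a range of 2-fold. The range reached 4-fold in 63 genes, just inside it Padi1 at 4.01-fold and just outside it Lox at 3.97-fold, both named after their values were seen. These 63 genes were chosen by their values in GFP-negative cells, so that their ranges are a description. Of the 63, 34 were highest in SN2286 and 47 were lowest in SN2294, and without the SN2294 library the count was 10.

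The GFP-positive libraries were not used in that choice. Of the 63 genes, 42 averaged at least 10 CPM there too, of which 35 had the same line highest in both sorts and 40 had the same line lowest, against 39.8% and 38.5% of all genes at that level. Since each line has a single GFP-negative library, the test of a line term takes the GFP-positive library of the same line as its second library, and it found 683 of 12848 genes (5.32%).

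**Figure D4:**
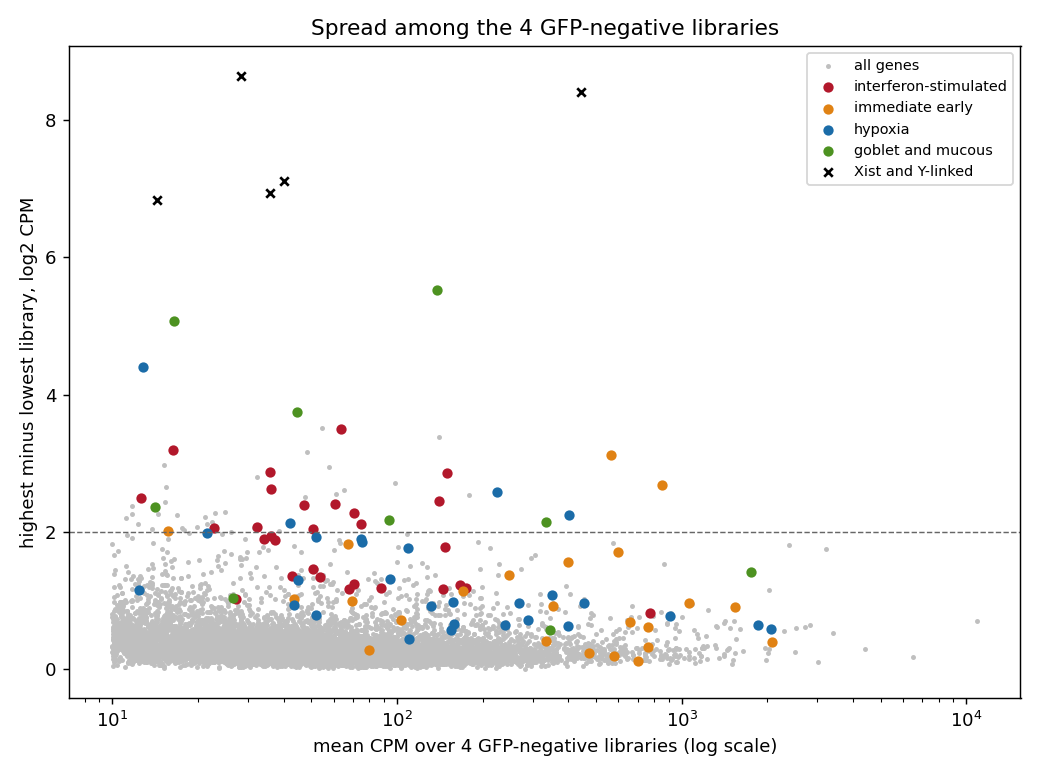
Range over the 4 GFP-negative libraries (highest minus lowest log2 CPM) against mean CPM on a log axis, for 9708 genes in grey and named gene groups in colour, with a dashed line at a 4-fold range. Xist and the Y-linked genes have the largest ranges, and the interferon-stimulated genes have a median range of 1.94, against 0.30 for all genes shown.

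Interferon-stimulated genes, a list written after values of these data were seen, made up 14 of the 63 genes with a 4-fold range, and none of them (0 of 29) reached it without the SN2294 library. Interferons act through STAT and IRF transcription factors, which bind the interferon-stimulated response element in target promoters. Ifit1, an antiviral RNA-binding protein, stood at 68.5, 105, 50.2 and 19.7 CPM, and Isg15, a ubiquitin-like modifier, at 52.8, 80.9, 40.1 and 15.3 CPM. Samd9l, an antiviral restriction factor, stood at 208, 218, 145 and 29.9 CPM. For each of the 3 genes SN2286 was highest and SN2294 lowest. The GFP-positive libraries of the same lines had the same order at 48.9, 85.6, 35.4 and 14.9 CPM for Ifit1 and at 50.9, 63.7, 30.9 and 9.55 CPM for Isg15.

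Of the 29 interferon-stimulated genes with at least 10 CPM in GFP-negative cells, 28 were lowest in SN2294 and 28 were highest in SN2286, where 33.0% and 24.1% of all genes at that level were. In GFP-positive cells, 28 of 28 were lowest in SN2294 (26.7% of all genes) and 27 highest in SN2286 (22.3%). Their sum was 3023, 4019, 2364 and 1527 CPM in the GFP-negative libraries. The line term passed for 27 of 30 (5.32% of all genes), for 27 without line SN2294 and for 25 without line SN2286. Among all genes 943 passed without SN2294 and 535 without SN2286, against 683 with every line. For the line term, the edgeR adjusted p was 8.75e-07 for Ifit1, 4.43e-06 for Isg15 and 1.60e-06 for Samd9l. An exception in order was Ifitm3, an antiviral membrane protein, at 722, 1084, 613 and 666 CPM, which was lowest in SN2293 (line term, edgeR adjusted p = 0.478, and 4.76e-04 without line SN2294). Between the sorts 2 of the 30 passed (Ifitm3 and Cxcl10, a chemokine gene, both higher in GFP-negative cells, against 21.8% of all genes), and with line as a block 19 as higher and 3 as lower (25.2% and 22.8%).

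The promoters of Ifit1 and Isg15 are shown because both genes carry the response element searched, GAAA, any 2 bases and GAAA again on either strand, close to the start. The sequences are from RefSeq (GRCm38.p6), 250 bases before to 50 bases after the start, written 5′ to 3′ on the strand of the gene, with matches in capitals; overlapping matches run together.
Ifit1, chr19:34640639-34640938, plus strand: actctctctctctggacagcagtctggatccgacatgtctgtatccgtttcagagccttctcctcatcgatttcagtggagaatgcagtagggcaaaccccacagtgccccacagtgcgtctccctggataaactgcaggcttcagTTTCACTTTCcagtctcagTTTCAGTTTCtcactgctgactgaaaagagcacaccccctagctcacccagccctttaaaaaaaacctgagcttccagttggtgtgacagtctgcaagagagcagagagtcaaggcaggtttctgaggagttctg
Isg15, chr4:156200769-156201068, minus strand: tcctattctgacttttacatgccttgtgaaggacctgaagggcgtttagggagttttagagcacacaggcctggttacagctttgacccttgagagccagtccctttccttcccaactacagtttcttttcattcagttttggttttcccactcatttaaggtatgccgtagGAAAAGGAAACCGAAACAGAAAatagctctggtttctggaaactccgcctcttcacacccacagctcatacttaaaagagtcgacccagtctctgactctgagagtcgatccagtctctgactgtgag
Ifit1 had 2 matches, the first beginning at position -104 from the start, and Isg15 had 3 overlapping matches, the first at -78. In the same window Samd9l had no match, and Ifitm3, the exception in line order, had 2. The motif was found in 13 of the 21 interferon-stimulated genes with a promoter in the table and in 3.99% of all 27018 genes there (3.44% of 32841 promoters). A match describes the letters and not binding in these cells.

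Immediate early genes, which are transcribed within minutes of a stimulus and were also listed after values were seen, differed in another order. Atf3, a stress-induced transcription factor, stood at 219, 1133, 770 and 130 CPM, and Fosb, a partner of Jun proteins, at 467, 1492, 1222 and 232 CPM. Both were high in SN2286 and SN2293 and low in SN2285 and SN2294. The GFP-positive libraries held 89.0, 499, 334 and 68.2 CPM of Atf3, in the same order (line term, edgeR adjusted p = 1.59e-08 for Atf3 and 8.75e-07 for Fosb). Junb, by contrast, stood at 687, 747, 692 and 687 CPM (edgeR adjusted p = 0.431).

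Several of these genes were among the most abundant of the sort. Egr1, a zinc-finger factor induced by growth signals, stood at 1855, 2364, 2302 and 1785 CPM and Fos at 1543, 1844, 1768 and 985 CPM. The 23 genes summed to 10371, 16238, 14157 and 9249 CPM, and 18 of them were highest in SN2286, against 24.1% of all genes. The line term passed for 16 of 23 (5.32% of all genes), for 17 without SN2294 and for 13 without SN2286. Among all genes 943 passed without SN2294 and 535 without SN2286, against 683 with every line. Between the sorts 10 passed as higher and 3 as lower in GFP-negative cells (21.8% and 18.9% of all genes), and 18 and 4 with line as a block (25.2% and 22.8%).

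Hypoxia-induced genes, the last list written after values were seen, were low in SN2294. They are known as targets of the hypoxia-inducible factors, which bind a short element with the core ACGTG. Egln3, an oxygen-sensing prolyl hydroxylase, stood at 272, 248, 322 and 53.5 CPM, Car9, a cell-surface carbonic anhydrase, at 72.1, 21.1, 58.8 and 16.4 CPM, and Ndufa4l2, a mitochondrial protein induced in hypoxia, at 19.6, 7.68, 23.1 and 0.944 CPM. SN2294 was lowest for all 3, and SN2286 was also low for Car9 and Ndufa4l2. Glycolytic genes had smaller ranges, with Ldha, the lactate dehydrogenase A gene, at 2422, 2011, 2213 and 1608 CPM.

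Of the 28 hypoxia genes with at least 10 CPM, 26 were lowest in SN2294, against 33.0% of all genes at that level. In GFP-positive cells 22 of 24 were, against 26.7% of all genes. The sum was 10320, 8718, 10026 and 6159 CPM. The line term passed for 23 of the 28 tested (5.32% of all genes) but for 11 without line SN2294, so that most of the count rests on that line. Among all genes 683 passed with every line and 943 without SN2294. Without its GFP-negative library the median range fell from 0.98 to 0.39 on the log2 scale, and that of all genes from 0.30 to 0.20. The edgeR adjusted p was 0.00429 for Car9, 0.00465 for Egln3 and 2.67e-04 for Ndufa4l2. Ero1l, an oxidase of the endoplasmic reticulum, spanned 116 to 554 CPM and did not pass (edgeR adjusted p = 0.164). Between the sorts 4 of 28 passed as higher and 5 as lower in GFP-negative cells, shares no larger than the 21.8% and 18.9% of all genes, and 8 and 12 passed with line as a block (25.2% and 22.8% of all genes).

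The Car9 promoter is shown because the core lies close to its start, in the same RefSeq window with the ACGTG core in capitals as it reads on the strand of the gene.
Car9, chr4:43506776-43507075, plus strand: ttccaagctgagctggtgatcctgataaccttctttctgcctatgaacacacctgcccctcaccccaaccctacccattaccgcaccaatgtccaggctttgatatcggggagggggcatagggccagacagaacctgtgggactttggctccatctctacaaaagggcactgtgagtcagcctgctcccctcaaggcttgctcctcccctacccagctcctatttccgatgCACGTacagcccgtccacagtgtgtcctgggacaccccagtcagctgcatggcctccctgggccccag
The match begins at position -18 and reads as the reverse complement of the core. The core, searched on both strands so that CACGTG counts on each, was found in 18 of the 24 hypoxia genes with a promoter in the table and in 21.8% of all genes there (19.6% of promoters).

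**Figure D5:**
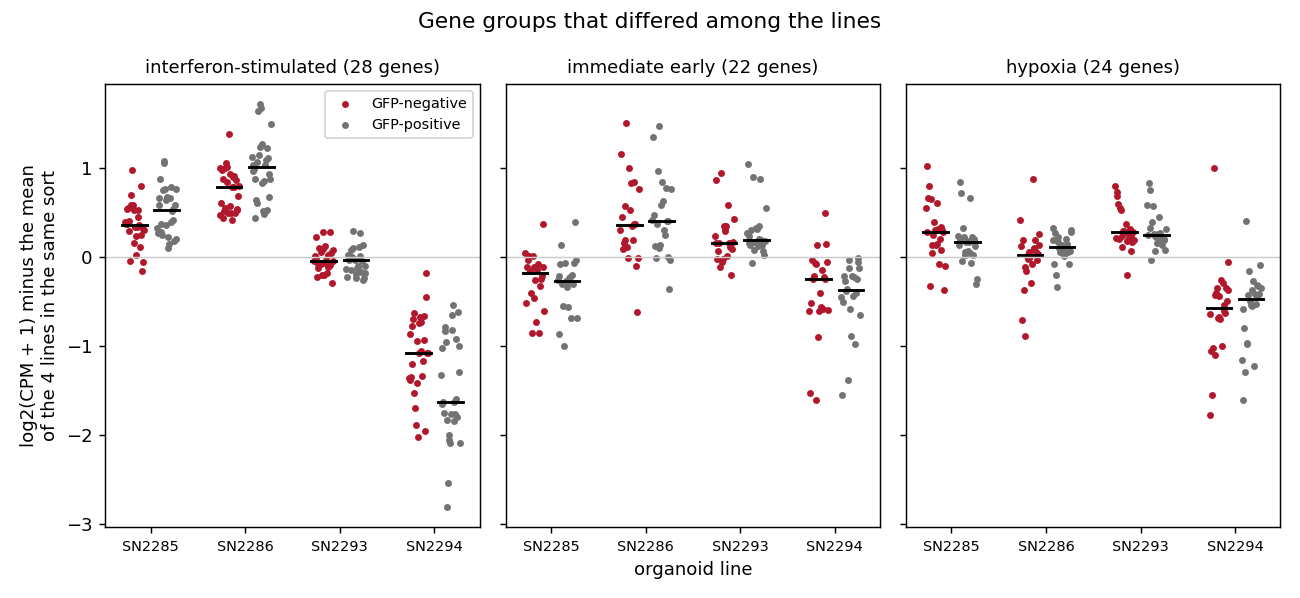
Each gene's log2(CPM + 1) in a line minus its mean over the 4 lines of the same sort, for GFP-negative (red) and GFP-positive (grey) libraries, with a bar at the median of the genes shown. Interferon-stimulated genes are highest in SN2286 and lowest in SN2294, immediate early genes are higher in SN2286 and SN2293, and hypoxia genes are lowest in SN2294, in both sorts.

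A few genes set SN2294 apart from every other GFP-negative library by 4-fold or more. Those higher there were Gpnmb, a glycoprotein of macrophages and lysosomal stress, at 38.6, 44.3, 73.9 and 404 CPM, the lysosomal protease gene Ctsk at 20.6, 23.6, 28 and 159 CPM, and the collagenase gene Mmp13 at 22.9, 14.1, 29.1 and 128 CPM. The other was Aldh3a1, an aldehyde dehydrogenase of barrier epithelia, at 6.68, 5.78, 6.08 and 28.2 CPM. In GFP-positive cells of SN2294 these genes stood at 2.79, 1.95, 8.71 and 0.455 CPM. The leukocyte transcripts of that library moved with them, and their part in these 4 differences was not tested.

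Lower in SN2294 by that margin were 7 genes. Cyp26b1, which degrades retinoic acid, stood at 67.6, 61.2, 82.1 and 7.08 CPM, and it was lowest in SN2294 in GFP-positive cells too, at 0.39 CPM against 1.05 to 1.69 CPM (line term, edgeR adjusted p = 3.32e-05, and 0.0709 without line SN2294). The others were Bpifa1, Ndufa4l2, Samd9l, Egln3, Oas3 and Ifi44, the last pair being interferon-induced genes. SN2293 was below all other lines by 4-fold for Xist only, and no gene set SN2285 or SN2286 apart by 4-fold.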

How the data were processed

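Polyadenylated RNA of 8 sorted organoid libraries was analysed, and the 4 GFP-negative ones are described. The authors deposited whole-number read counts per gene symbol. Per the submitters' processing notes, cutadapt 1.16, STAR 2.5.3a, featureCounts and the mouse build mm9 were used; the annotation and any use of strand are unknown. Reads of a gene and of its overlapping or antisense partner may thus be mixed, as may those of closely similar genes.

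Counts were scaled with edgeR 4.0.16 (TMM factors, R 4.3.3) to CPM; log2 CPM used a prior count of 2. TPM used union exon lengths of GRCm38 gene models, found for 97.9% of symbols; no coordinate was carried between builds. Genes kept by filterByExpr (12848) were tested with edgeR's quasi-likelihood test at a Benjamini-Hochberg adjusted p of 0.05: a line term with sort as covariate, and a sort term without a block. On simulated counts, the line term called 66% and the sort term 90% of genes changed 2-fold. These counts had the dispersion of the fit with line and no other difference between lines. The 90% can thus overstate what the sort term without a block finds in the data. The common biological coefficient of variation was 0.154 in that fit, against 0.0897 in the fit with line. DESeq2 1.42.0 was an alternative. Deviations from the group means correlated between the 2 sorts of each line (r = 0.367, 0.455, 0.322 and 0.404 across genes), so line pairs the samples, as the labels also name it. With other lines r was at most -0.00339, but centring on the group mean pulls these values down once the same-line ones are positive.

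Genes named were the 30 with the highest mean CPM, the first 4 and the 4 most abundant of each list, the 30 with the largest range, and up to 6 genes setting a library apart by 4-fold; others are marked. Members, lists and rules were chosen with earlier results of these data known, and 3 of 25 lists were written after values were seen.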

Additional observations from a re-analysis of the deposited data

Results flagged for a closer look

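In 141 groups of 4 libraries, 1 for each gene named with values and for summed levels, 15 had a highest or lowest library whose gap to its nearest neighbour exceeded Dixon's 95% critical share of the whole range. Chance alone marks about 1 in 20 such groups, a rate that does not hold for genes chosen by their values: Gpnmb, Ctsk, Mmp13 and Aldh3a1 were named because SN2294 exceeded the other lines, and Ctss after its values were seen. Groups at or near 0 counts also reach a high share easily.

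The GFP-negative library of SN2294 stood apart in most of them. Its total of 5910344 counts lay below 14408203 to 15583384 in the other lines (share 0.879). Leukocyte genes were the clearest case, with a share of 1 for Ptprc (4.09 CPM against 0), 0.994 for Csf1r (10.9 CPM), 0.97 for Emr1 (8.66 CPM) and 0.993 for Ctss (26.6 CPM). Gpnmb (404 CPM, share 0.903), Ctsk (159 CPM, 0.946), Mmp13 (128 CPM, 0.868) and Aldh3a1 (28.2 CPM, 0.96) were high in the same library, whose macrophage genes other than Lyz2 and Cd14 summed to 195 CPM. Gabrp was low there, at 478 CPM against 675 to 695 CPM (0.907), and Cdh5 was counted there alone, at 0.157 CPM (1), under the floor of 0.508 CPM.

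SN2286 stood apart for 4 genes. Cp reached 3364 CPM there against 2209 to 2289 CPM (share 0.931), Foxa1 298 CPM against 242 to 245 CPM (0.955), Junb 747 CPM against 687 to 692 CPM (0.92), and Trpm5 0.0656 CPM against 0 (1), under the floor of 0.206 CPM.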

How the results depend on the processing

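The number of genes with a line term was 683; it was 1090 without a filter on low counts and 479 to 943 when each line was left out in turn, the highest without SN2294. The 4-fold range was found for 63 genes, for 40 without the SN2286 library, for 10 without that of SN2294 and for up to 61 without another. Of the 30 leading genes by CPM, 14 were also leading by reads per kilobase. With line as a replicate block, 6168 genes differed between the sorts, against 5231 without it, and the block changed no call of a gene whose sort p is printed. Median ranges fell from 1.94 to 0.82 (log2) for interferon-stimulated genes and from 0.98 to 0.39 for hypoxia genes without the SN2294 library. A range cannot grow when a library is left out, and that of all genes fell from 0.30 to 0.20. DESeq2 passed Bpifa1 (0.0445), Muc5b (2.16e-07), Hbegf (0.0102) and Ero1l (0.0044), which edgeR did not; the cause was not tested. The settings that concern lists were chosen after seeing the data. Depth limits statements on SN2294, where genes under 3 counts (0.508 CPM by library total alone) cannot be told from 0.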
